A study of Mus musculus with 6 samples.

Results

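The genes described here are the classical axon guidance ligands and receptors: the semaphorins and their plexin receptors, the Slits and the Robo receptors, the netrins with their receptors Dcc and Unc5, and the ephrins with the EphA and EphB receptors. Members were found by symbol, and 67 of the 32285 genes in the deposited count tables matched: 20 semaphorins, 9 plexins, 3 Slits, 4 Robos, 4 netrins, 5 netrin receptors (Dcc and Unc5a to Unc5d), 5 ephrin-As, 3 ephrin-Bs, 9 EphA and 5 EphB receptors. They were measured by single-nucleus RNA sequencing of the mouse pons and medulla. Of 43836 barcodes, 40139 had 500 or more genes and no more than 5% of their counts from mitochondrial genes, and these nuclei were used.

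All mice were male wild-type C57BL6/J, weaned at postnatal day 21. The exposed mice spent 21 days, postnatal day 22 to 43, in chronic intermittent hypoxia (CIH). Nitrogen took the chamber to between 4.5 and 5% oxygen, and air then brought it back to 21%, in 80 cycles a day over 8 hours. The control mice stayed in room air (normoxia) over the same days. There were 3 libraries per group, with 26733243 to 46754345 unique molecular identifiers (UMIs, the counted molecules) each. The number of mice behind each library is not given, so p-values measure only the spread between these libraries, which may be technical. The design asks which cell classes express a gene and whether its level differs after CIH.

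Some libraries stood apart. First, CIH replicate 1 and normoxia replicate 2 had 1563 barcodes in common, whereas every other pair of libraries had 3 to 38. At the common barcodes the normoxia library held a median of 984 UMIs and the CIH library 7872, and the normoxia count was a nearly fixed share of the CIH count (median 12.6%, 5th to 95th percentile 11.4 to 13.9%). The 1163 affected nuclei that passed the filters were left out of normoxia replicate 2, a choice made after the data were seen, which left 38976 nuclei. Keeping them left the number of guidance genes called the same in every comparison below. Second, CIH replicate 3 had a median mitochondrial share of 0.366%, against 0.0624 to 0.0955% in the other 5 libraries. It also supplied 385 of the 703 astrocytes and 446 of the 772 endothelial cells.

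As background, axon guidance molecules steer growing axons by attraction and repulsion. Netrins attract through Dcc and repel through Unc5 receptors, Slits repel through Robo receptors, and semaphorins act through plexins, the secreted class 3 members mostly with neuropilin coreceptors. Ephrins are held in the membrane and signal through Eph receptors on the neighbouring cell, and both partners can receive a signal. In the mature brain members of these families are also known from synapses, blood vessels and cells of the oligodendrocyte lineage.

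Nuclei were assigned to classes one at a time from marker genes, none of which is a guidance gene of the families above, and class names stand for "oligodendrocyte-like" and so on. The 8 classes fitted had at least 20 nuclei in every library. They were 11167 oligodendrocytes, 345 oligodendrocyte precursors, 703 astrocytes, 1365 microglia, 772 endothelial cells, 1506 excitatory neurons, 3405 inhibitory neurons and 4084 granule neurons. Another group, 6436 other neurons (551 to 2064 per library) that did not meet the rule for any of the neuron classes, was not fitted. Granule neurons were named by markers of the granule neurons of the cerebellum. The cerebellum adjoins the labelled pons and medulla, and the region these nuclei came from was not tested. Their gate set no limit on transmitter genes, and both excitatory and inhibitory ones were read in them, as given below. Before the shared barcodes were left out, 32.55% of the granule nuclei had only the minimum of 3 of the 8 granule markers. Levels are counts per 1e+06 UMIs of all genes in the summed nuclei of a class and library, with the UMI total scaled by the TMM factor (CPM), and means weight the 6 libraries equally. Depth differed widely. The sums held 3282985 to 8221175 UMIs per library in oligodendrocytes but 48629 to 625942 in endothelial cells, where 3 UMIs in the shallowest library equal 62.2 CPM. RNA set free from other nuclei can add UMIs to any class, so the level in the lowest class is given for the main genes. Levels are compared between classes for 1 gene at a time, never between genes.

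Guidance genes were read out in every class. Each gene was given 1 leading class, that of its highest mean, so the sets of leading genes differ by construction. Of the 67 genes, 57 reached 10 CPM in at least 1 class. Of these, 12 had their highest mean in endothelial cells, 10 in oligodendrocyte precursors, 9 in inhibitory, 7 in excitatory and 5 in granule neurons, 5 in astrocytes, 5 in microglia and 4 in oligodendrocytes. The limit of 10 CPM lies below 3 UMIs in the shallowest library of endothelial cells (62.2 CPM) and of precursors (28.2 CPM). Some leads therefore rest on few UMIs. For 27 genes the 6 libraries of the leading class all lay above the 6 of the next class. The 10 genes under 10 CPM everywhere were Epha1, Epha2, Efna3, Efna4, Efnb1, Ntn3, Ntn5, Robo3, Sema3b and Sema3f.

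Each class was compared with the mean of the other 7 by edgeR's quasi-likelihood test, and a gene was called higher at an adjusted p under 0.05 and a log2 difference of at least 1. The filter on low counts passed 58 of the 67 genes. Those that passed through 1 high class had to differ between classes, so the counts describe the families and are no evidence that guidance genes stand apart. Excitatory neurons had 35 guidance genes called higher, where 18.7% of all 14343 genes tested were. Inhibitory neurons had 32 (all genes 17.9%) and granule neurons 22 (all genes 14.3%). Oligodendrocyte precursors had 18 (all genes 10.3%), oligodendrocytes 14 (all genes 13.9%), endothelial cells 13 (all genes 15.5%), astrocytes 11 (all genes 15.5%) and microglia 5 (all genes 16.5%). Excitatory and inhibitory neurons shared 30 of these calls, which is 30 of 35 and 30 of 32. The sharing over all genes is not given here, so this overlap is not shown to be particular to guidance genes. Microglia had the fewest, Plxna4, Plxnb2, Sema4c, Sema4d and Sema4g: 2 plexins and 3 class 4 semaphorins, with no ephrin, Eph, netrin, Slit or Robo gene among them.

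**Figure D1:**
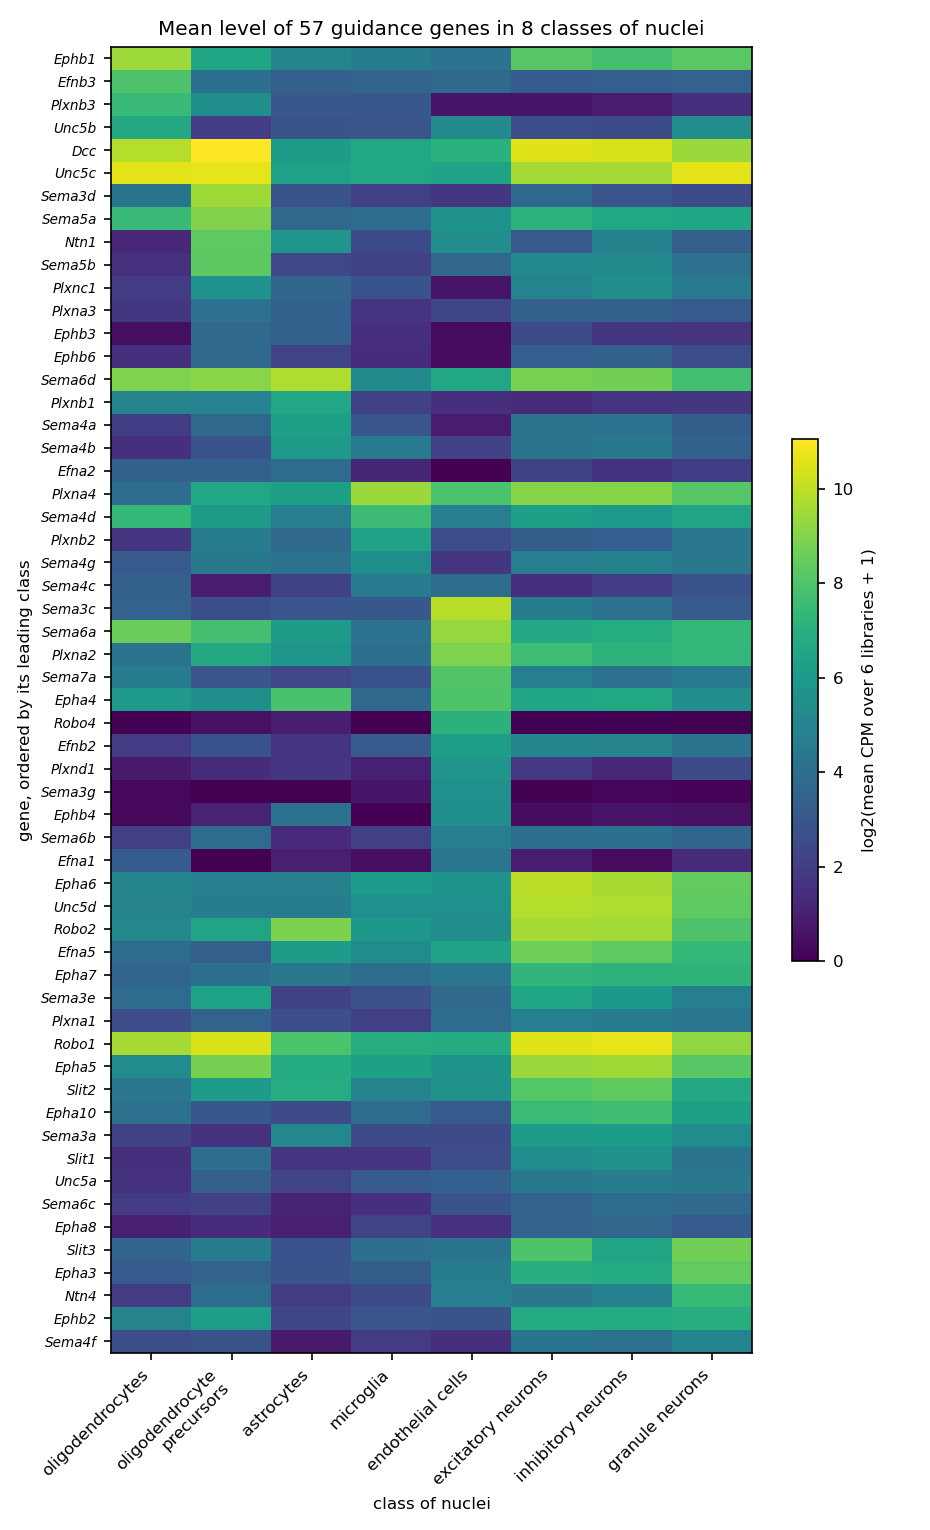
Mean level of the 57 guidance genes that reached 10 CPM, as log2(mean CPM over 6 libraries + 1), in 8 classes of nuclei (columns). Rows are ordered by the class in which the gene was highest; of the 12 genes led by endothelial cells, from Sema3c to Efna1, Robo4, Plxnd1, Sema3g and Ephb4 were dark in most other columns, while the excitatory and inhibitory columns resemble each other.

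5 genes had a mean in 1 class at least 10 times that in the next, with no overlap between the libraries of the 2 classes: Robo4, Sema3c and Plxnd1 in endothelial cells, Sema3d in oligodendrocyte precursors, and Efnb3 in oligodendrocytes. For 3 of them the bases before the RefSeq start are shown (build GRCm38.p6), because a promoter is of most interest where 1 of the fitted classes dominates. The other 2, Sema3c and Efnb3, did not have a single window with enough bases outside the GENCODE gene. The stretches lie outside the GENCODE gene, which leaves 175 bases for Robo4. Capitals mark matches, on either strand, to 4 short motifs: AGGAAG, a core of ETS factors, which are active in endothelium; ACAAAG, a core of SOX factors, which are active in the oligodendrocyte lineage; and ACGTG and GCGTG, the core of the hypoxia response element.
Robo4, chr9:37401722-37401896, + strand: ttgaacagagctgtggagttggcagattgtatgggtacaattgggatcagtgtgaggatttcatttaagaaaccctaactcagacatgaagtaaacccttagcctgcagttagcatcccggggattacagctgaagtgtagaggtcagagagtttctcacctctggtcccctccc
Plxnd1, chr6:115995006-115995255, - strand: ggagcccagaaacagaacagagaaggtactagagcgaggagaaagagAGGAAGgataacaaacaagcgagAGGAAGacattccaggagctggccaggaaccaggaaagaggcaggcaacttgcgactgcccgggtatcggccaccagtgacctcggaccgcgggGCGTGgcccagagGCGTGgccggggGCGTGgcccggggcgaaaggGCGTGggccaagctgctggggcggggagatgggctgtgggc
Sema3d, chr5:12382916-12383165, + strand: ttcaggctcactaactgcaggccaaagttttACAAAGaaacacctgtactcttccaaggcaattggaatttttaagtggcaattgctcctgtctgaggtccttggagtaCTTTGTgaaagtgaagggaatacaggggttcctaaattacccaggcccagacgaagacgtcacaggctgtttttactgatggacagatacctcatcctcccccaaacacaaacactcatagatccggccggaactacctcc

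The Plxnd1 stretch held 2 ETS matches and 4 GCGTG matches and the Sema3d stretch 2 SOX matches, 1 on each strand. The Robo4 stretch held none of the 4 motifs; the ETS match in its full window of 250 bases lies in the part not shown. RefSeq windows were found for 57 of the 67 guidance genes, in 73 windows of 250 bases before a start. Either hypoxia core was in 30 of the 73 (41.1%), against 38.6% of all 32851 windows. The ETS core was in 34.2% against 29.5%, and the SOX core in 9.6% against 16.5%. For genes led without overlap by endothelial cells, the ETS core was in 2 of 7 windows (28.6%). For those led without overlap by oligodendrocyte precursors, the SOX core was in 1 of 3 windows, that of Sema3d. A match is a run of letters and not a shown binding site.

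The endothelial genes had these levels. Robo4, a receptor known from vascular endothelium, had 111, 132 and 114 CPM in the CIH libraries and 219.8, 124 and 114 CPM in the normoxia libraries. These rest on 141 UMIs in endothelial cells, against 0 in microglia and 1 or 2 in each of the other 6 classes, so every endothelial library lay above every other class. Sema3c, a secreted semaphorin, had 546, 845 and 1252 CPM under CIH, against 797, 1098 and 1081 CPM in normoxia, and its next class, excitatory neurons, had 24.4 CPM. Sema7a, a semaphorin anchored in the membrane, had a mean of 264 CPM (SD 78.0, n = 6) with normoxia replicate 2 highest at 414 CPM, against 26.6 CPM in excitatory neurons. Plxnd1, a plexin with a known part in vessel patterning, had 54.2 CPM (SD 8.44) from 61 UMIs. Both groups overlapped for all 4 genes.

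**Figure D2:**
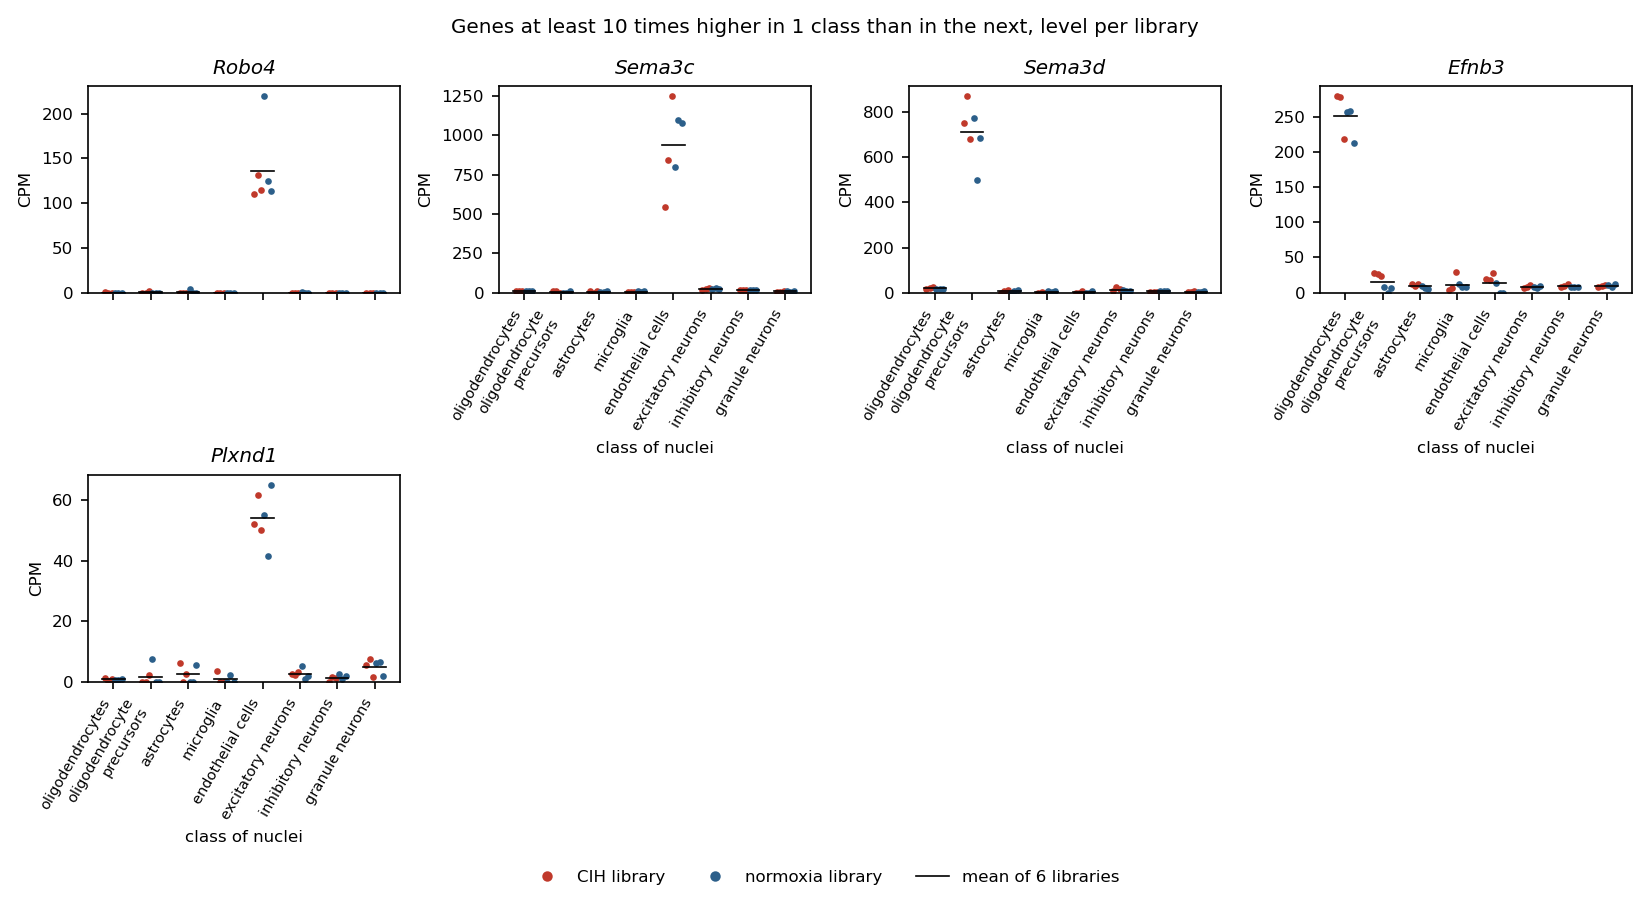
Level in CPM of the 5 genes with 1 dominant class, by class of nuclei; each point is 1 library (red CIH, blue normoxia) and each line the mean of 6. All 6 points of the leading class stand above the points of the other 7 classes, and both colours lie intermixed there.

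Among secreted ligands, netrin-1 was found mainly in oligodendrocyte precursors, together with 2 of its 5 receptors, Dcc and Unc5c. Ntn1 (chr11:68209364-68400823 in mm10) had 347, 418 and 326 CPM there under CIH, against 223, 299 and 316 CPM in normoxia, and 54.1 CPM in astrocytes, 43.2 CPM in endothelial cells and 1.41 CPM in oligodendrocytes. The difference of oligodendrocyte precursors from the other classes was 4.64 on the log2 scale (SE 0.22). Ntn4, a netrin of basement membranes, was instead led by granule neurons (168 CPM, SD 21.5), ahead of inhibitory neurons with 28.2 CPM.

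Dcc, the attractive netrin receptor, was highest in oligodendrocyte precursors, with 1953, 2599 and 2150.2 CPM under CIH, against 2164, 1703 and 2268 CPM in normoxia. Excitatory neurons (1451 CPM, SD 235) and inhibitory neurons (1333 CPM, SD 227) came next and overlapped each other. Oligodendrocytes had 912 CPM, granule neurons 676 CPM, and endothelial cells, microglia and astrocytes 132, 96.8 and 67.5 CPM. Of the 7 neighbouring pairs in this order, 5 overlapped between libraries. Unc5c, a repulsive netrin receptor, was high in the whole oligodendrocyte lineage and in granule neurons: 1613 CPM in precursors, 1577 CPM in granule neurons and 1541 CPM in oligodendrocytes, which overlapped, against 765 and 754 CPM in excitatory and inhibitory neurons. Unc5b led in oligodendrocytes (102 CPM, SD 23.1) with granule neurons next (41.4 CPM) and was lowest in precursors (3.05 CPM). Unc5d led in excitatory neurons (921 CPM, against 29.5 CPM in oligodendrocytes). Unc5a had a mean of at most 23.9 CPM, in inhibitory neurons.

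The 3 Slits, repellent ligands of the Robos, were all called higher in both excitatory and inhibitory neurons, but not to the same degree. Slit2 was highest in inhibitory neurons (325 CPM, SD 41.0) and excitatory neurons (285 CPM, SD 37.4), whose libraries overlapped, and had 19.4 CPM in oligodendrocytes. Slit3 separated the neuron classes. It had 369.8 to 477 CPM in granule neurons, 203 to 309 CPM in excitatory neurons and 52.8 to 113 CPM in inhibitory neurons, 3 ranges that did not overlap. Slit1 reached 49.2 CPM in inhibitory and 40.6 CPM in excitatory neurons.

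Of the receptors, Robo1 was highest in inhibitory neurons (1631 CPM, SD 156), followed by excitatory neurons (1461 CPM, SD 136) and oligodendrocyte precursors (1325 CPM, SD 171), and these neighbours overlapped. It was lowest in endothelial cells, at 109.9 CPM. Robo2 had 754 CPM in excitatory and 729 CPM in inhibitory neurons, and astrocytes were the third class in which it was called higher (474 CPM, SD 98.6). In oligodendrocyte precursors Robo2 had 263 CPM in CIH replicate 1 and 141 CPM in normoxia replicate 3 against 17.8 to 39.9 CPM in the other 4 libraries, so its mean of 86.3 CPM there rests on 2 libraries.

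**Figure D3:**
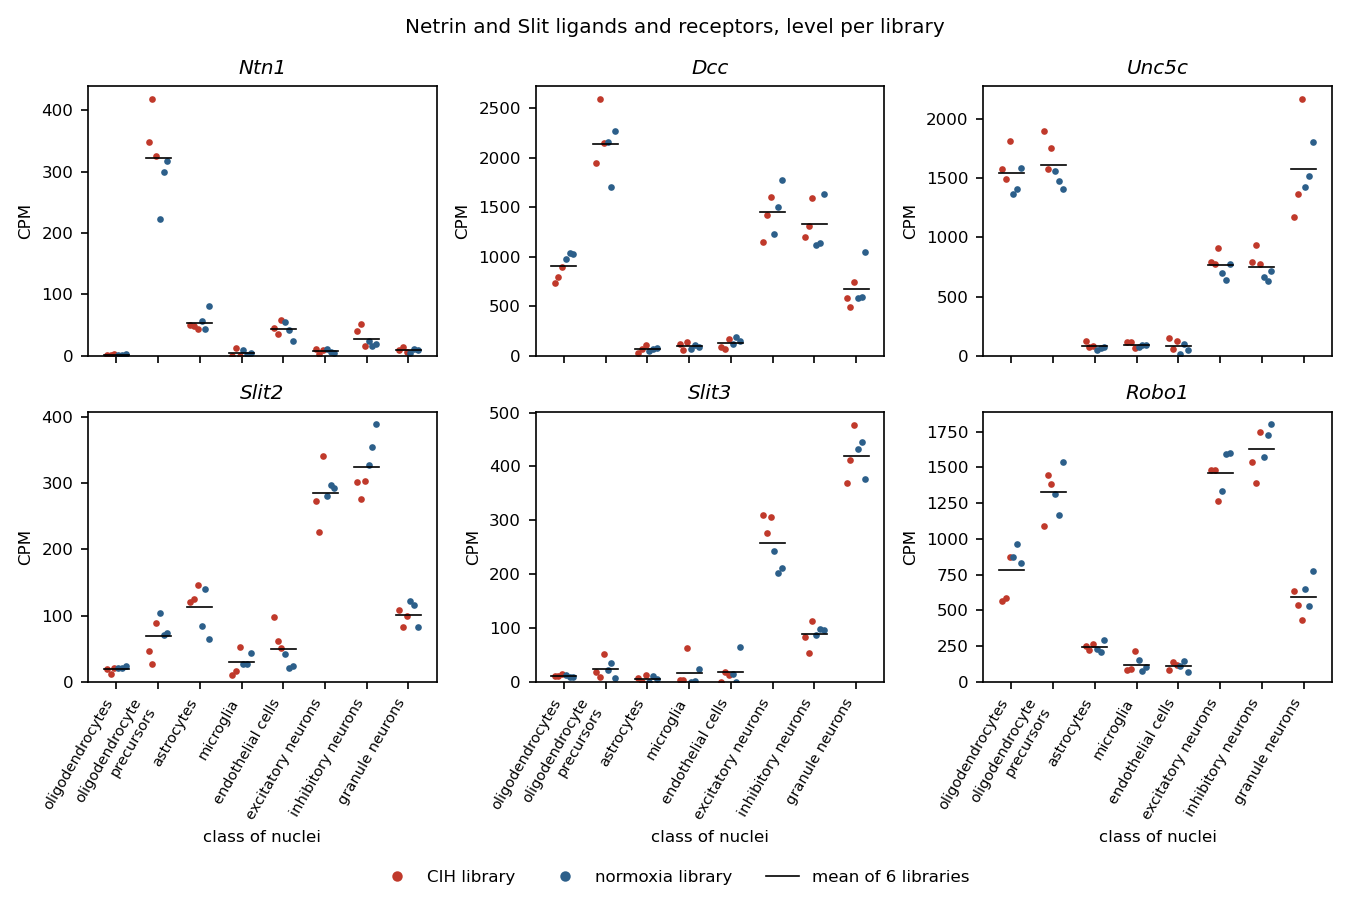
Level in CPM of 3 netrin-system and 3 Slit-system genes by class of nuclei; points are libraries (red CIH, blue normoxia) and lines means of 6. Oligodendrocyte precursors stand highest for Ntn1 and Dcc and share the top of Unc5c with oligodendrocytes and granule neurons, and the granule, excitatory and inhibitory neurons form 3 separate levels for Slit3.

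Different semaphorins led in different classes. In oligodendrocyte precursors Sema3d had 751, 872 and 679.98 CPM under CIH, against 774, 500.5 and 687 CPM in normoxia, and it had 18.8 CPM in oligodendrocytes, the class that precursors mature into. Sema5b likewise had 306 CPM (SD 43.8) in precursors and 1.98 CPM in oligodendrocytes, and Sema5a 506 CPM (SD 56.9) and 176 CPM. The 2 classes did not overlap for any of the 3 genes. Sema4d, which is known from myelin and immune cells, had 192 CPM (SD 34.5) in microglia and 164 CPM (SD 6.91) in oligodendrocytes, and these overlapped.

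Astrocytes led for Sema6d, with 1071, 888 and 922 CPM under CIH, against 785, 727 and 808 CPM in normoxia, and precursors followed with 551 CPM and lay below them in every library. Sema4a (74.6 CPM, SD 16.4) and Sema4b (59.9 CPM, SD 15.2) were also led by astrocytes, with the libraries above those of the next class. Sema6a had 629.7 CPM (SD 57.4) in endothelial cells and 375 CPM in oligodendrocytes. Sema3g was read in endothelial cells in 5 of 6 libraries (27.5 to 123.2 CPM) and had 0 UMIs in normoxia replicate 3; it did not pass the filter on low counts. Sema3a and Sema3e, secreted class 3 members, were called higher in both excitatory and inhibitory neurons (65.3 and 68.8 CPM for Sema3a, 90.1 and 58.2 CPM for Sema3e), and Sema3e also in oligodendrocyte precursors (84.0 CPM, SD 26.0).

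Among plexins, the receptors of semaphorins, 4 led in 4 different glial or vascular classes. Plxnb3 led in oligodendrocytes (179.9 CPM, SD 20.9, against 44.0 CPM in precursors and 0.522 to 6.95 CPM elsewhere), Plxnb1 in astrocytes (97.9 CPM, SD 22.2), Plxnb2 in microglia (80.8 CPM, SD 12.02) and Plxna2 in endothelial cells (482 CPM, SD 132). The libraries of the leading class lay above those of the next class for all 4 genes. Plxna4, a receptor complex partner of the neuropilins, was highest in microglia, with 650.2, 749 and 670.5 CPM under CIH, against 698, 645 and 626 CPM in normoxia, and had 528 CPM in excitatory and 529 CPM in inhibitory neurons. All 6 microglial values were above all 12 of those neuronal values. Neuronal marker sums in microglia were 935 to 1159 CPM under CIH, against 915 to 1341 CPM in normoxia, while in excitatory and inhibitory neurons they were 8580 to 9451 CPM.

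Among the Eph receptors, 6 of the 9 EphA genes were called higher in both excitatory and inhibitory neurons (Epha3, Epha5, Epha6, Epha7, Epha8 and Epha10). Epha6 had 963 CPM (SD 119) in excitatory and 781 CPM (SD 101) in inhibitory neurons against 31.2 CPM in oligodendrocytes. Epha5 added oligodendrocyte precursors (437 CPM, SD 98.4) to the inhibitory and excitatory neurons (713 and 674 CPM). Epha3 was led by granule neurons (279.5 to 423 CPM). Epha4, which binds both ephrin classes, was the exception: it was called higher in endothelial cells (254 CPM, SD 73.0) and astrocytes (233 CPM, SD 42.2) and had 90.1 and 94.7 CPM in excitatory and inhibitory neurons.

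Ephb1 was highest in oligodendrocytes, with 649.7, 692 and 723 CPM under CIH, against 698, 749 and 623 CPM in normoxia. Granule and excitatory neurons followed with 298 and 292 CPM, precursors had 88.9 CPM and endothelial cells 17.4 CPM. Efnb3, a ligand of EphB receptors that is known to inhibit axon growth in myelin, was led by the same class, with 279, 278 and 218 CPM under CIH, against 256, 257 and 213 CPM in normoxia, and 8.45 to 15.4 CPM in the other 7 classes. The endothelial pair of vascular biology, the ephrin Efnb2 (an arterial mark) and its receptor Ephb4 (a venous mark), had 70.3 CPM (SD 18.3) and 44.7 CPM (SD 7.44) in endothelial cells, from 77 and 51 UMIs. Among the ephrin-As, Efna5 was neuronal (398 CPM in excitatory and 320.4 CPM in inhibitory neurons), while Efna1 (19.3 CPM in endothelial cells) and Efna2 (13.6 CPM in astrocytes) rest on 22 and 24 UMIs in those classes.

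Markers of other cells bear on the endothelial values. The summed level of 12 mural cell markers in endothelial cells was 440.2 to 836 CPM under CIH, against 406 to 1678 CPM in normoxia. That of 6 choroid plexus markers was 2331 CPM in CIH replicate 2 and 20.7 to 219 CPM in the other libraries, with none of the 6 at 0 over the class. The part of these cells in the endothelial levels was not tested.

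The genes whose mean log2 levels over the 8 classes were most like those of 5 guidance genes were looked up among 13876 genes, as a description over 8 points that share libraries and depth. For Dcc these were Sorcs3, 9530059O14Rik and Xkr4 (Pearson's r 0.976 to 0.987). They were Rnf32, Gm47134 and Zfp523 for Robo1 (0.979 to 0.988). For Sema3e they were Pak3, Vstm5 and Gng4 (0.971 to 0.983), for Epha4 Capn2, Tbc1d2 and Nxpe4 (0.944 to 0.989) and for Efnb3 Sec14l5, Kctd3 and Gm44866 (0.990 to 0.992).

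No guidance gene was called between CIH and normoxia in any of the 8 classes by edgeR's quasi-likelihood test at an adjusted p under 0.05, and none by DESeq2. Calls over all genes were also few with edgeR: 2 in oligodendrocytes (0.0152% of 13173 genes), 1 in oligodendrocyte precursors (0.0424% of 2359), 1 in excitatory neurons (0.00781% of 12798) and 1 in inhibitory neurons (0.00697% of 14355). There were 0 calls (0%) in astrocytes (3941 genes), microglia (6008), endothelial cells (2672) and granule neurons (11499). DESeq2 called 21 genes in oligodendrocytes, 9 in excitatory neurons, 14 in inhibitory neurons, 1 in granule neurons and 0 in the other 4 classes.

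An unadjusted p under 0.05 was reached by 10 of 51 guidance genes tested in excitatory neurons (19.6%, against 7.54% of all genes) and 10 of 54 in inhibitory neurons (18.5%, against 6.81%). The share was similar in astrocytes, with 3 of 16 (18.8%, against 5.68%), and endothelial cells, with 2 of 11 (18.2%, against 7.15%). It was 4 of 51 in oligodendrocytes (7.84%, against 5.49%) and 4 of 50 in granule neurons (8.0%, against 3.86%). In oligodendrocyte precursors it was 1 of 14 (7.14%, against 5.51%) and in microglia 1 of 13 (7.69%, against 4.58%). The median log2 difference over the guidance genes tested was 0.08 in excitatory and 0.04 in inhibitory neurons and -0.04 in oligodendrocytes, with the median over all genes at 0.01 in each of the 3 classes. Precision limits these comparisons. The median standard error of a guidance gene's log2 difference was 0.16 in inhibitory neurons, 0.18 in excitatory neurons and 0.31 in microglia.

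**Figure D4:**
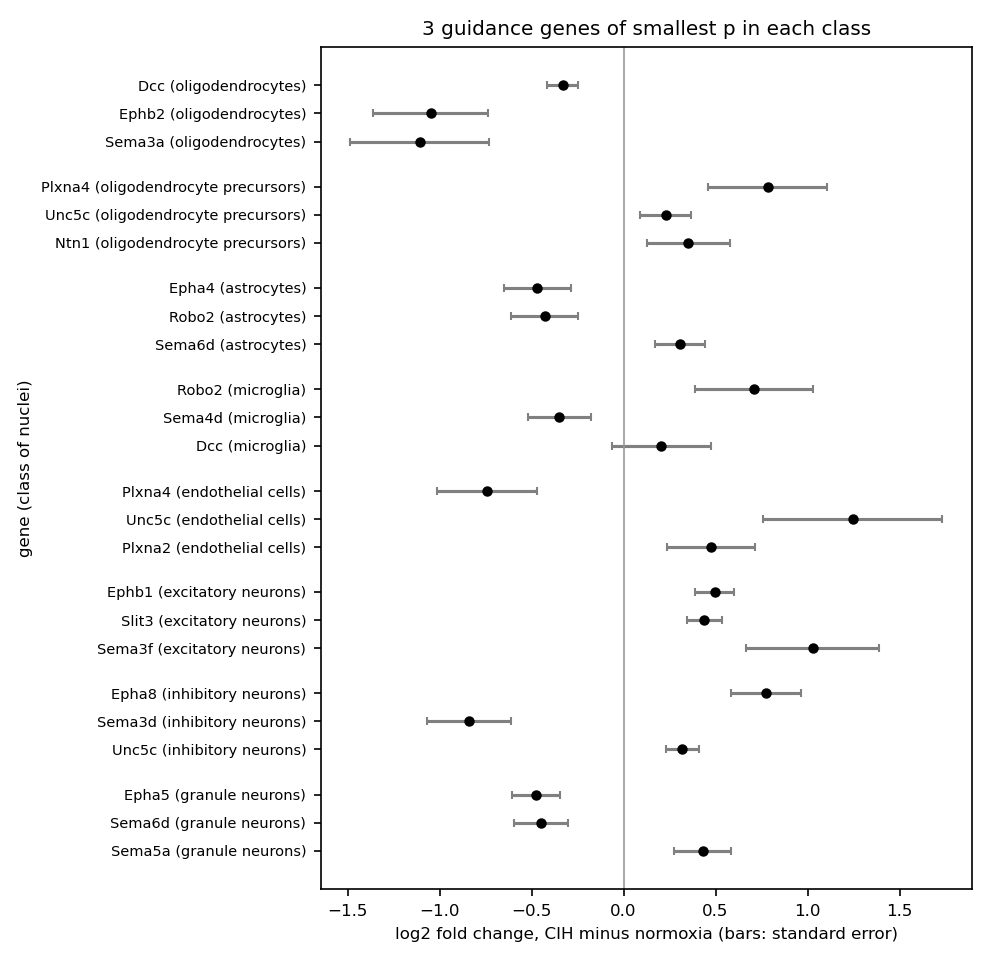
Log2 fold change, CIH minus normoxia, of the 3 guidance genes of smallest p in each class (rows, class in brackets); points are edgeR estimates and bars their standard errors. None passed the adjusted threshold; the estimates range from -1.11 for Sema3a in oligodendrocytes to 1.25 for Unc5c in endothelial cells.

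In excitatory neurons the smallest p-values belonged to Ephb1 and Slit3. Ephb1 had 329.8, 393 and 302 CPM under CIH, against 237, 225 and 265 CPM in normoxia, so all CIH libraries lay above all normoxia libraries. Its log2 difference was 0.49 (SE 0.11, adjusted p = 0.179 by edgeR). Slit3 had 309, 276 and 306 CPM under CIH, against 242, 203 and 212 CPM in normoxia, again without overlap (log2 difference 0.44, SE 0.10, adjusted p = 0.188), and with the stricter gate its log2 difference was 0.24 (SE 0.19). Ephb1 passed the threshold without the filter on low counts and without CIH replicate 3, and Slit3 without the filter; over all alternatives the adjusted p ran from 0.00187 to 0.903 for Ephb1 and from 0.0154 to 0.921 for Slit3. In inhibitory neurons the log2 difference was 0.10 (SE 0.08) for Ephb1 and -0.15 (SE 0.25) for Slit3.

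Slit3 is highest in granule neurons, and granule markers in the excitatory nuclei moved with the group. The summed level of the 8 granule markers was 143, 126 and 106 CPM in the CIH libraries and 64.3, 56.2 and 91.4 CPM in the normoxia libraries, with no marker at 0, while CIH replicates 1 and 2 also held the most granule nuclei (988 and 1150, against 406 to 553 elsewhere). Slit3 itself had 419.6 CPM in CIH and 418 CPM in normoxia within granule neurons. For Ephb1, highest in oligodendrocytes, the 12 oligodendrocyte markers in excitatory nuclei summed to 104 to 183 CPM under CIH, against 112 to 138 CPM in normoxia. The gene called over all genes in this class was Tph2, a serotonin synthesis enzyme, and the 5 serotonergic markers summed to 15.4 to 25.6 CPM under CIH (1 of the 5 at 0 over the class), against 4.61 to 7.03 CPM in normoxia. Also without overlap, 12 microglial markers summed to 87.5 to 104 CPM under CIH, against 120.2 to 128 CPM in normoxia, and 6 Schwann cell markers (1 at 0) to 46.7 to 51.0 CPM, against 23.7 to 36.2 CPM. The part of these cells in the differences was not tested.

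In excitatory neurons the third gene was Sema3f, a secreted repellent, at 9.61, 10.3 and 5.28 CPM under CIH, against 5.62, 3.32 and 3.46 CPM in normoxia, and these overlapped. In inhibitory neurons Epha8 had 16.6, 14.5 and 12.2 CPM under CIH, against 8.61, 7.64 and 8.75 CPM in normoxia, with no overlap (log2 difference 0.77, SE 0.19, adjusted p = 0.387). Sema3d had 4.88, 4.45 and 4.98 CPM against 7.61, 9.03 and 9.02 CPM, all CIH libraries below (log2 difference -0.84, SE 0.23, adjusted p = 0.439), and its log2 difference with the stricter gate was -0.44 (SE 0.30). Unc5c, well expressed, had 796, 938 and 777 CPM against 664, 629 and 719 CPM, all CIH libraries above (log2 difference 0.32, SE 0.09, adjusted p = 0.484). Slit2 had 302, 276 and 304 CPM against 327, 354 and 389 CPM, and Epha6 was likewise lower in each CIH library (654 to 779 CPM against 781 to 937 CPM). Unc5c, Slit2 and Epha6 passed the threshold without the filter on low counts. Ntn1, at 40.02, 51.3 and 16.6 CPM under CIH, against 23.4, 15.3 and 19.9 CPM in normoxia, was called without CIH replicate 3 (log2 difference 1.23). Marker sums of 2 other cell types did not overlap between the groups in these nuclei: 12 astrocyte markers had 145 to 223 CPM under CIH, against 122.8 to 131 CPM in normoxia, and 5 serotonergic markers 4.75 to 6.01 CPM against 1.74 to 4.41 CPM, with none at 0. The 8 granule markers summed to 81.0 to 97.3 CPM under CIH, against 62.0 to 83.2 CPM in normoxia. The part of those cells was not tested.

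The difference between the CIH effects in excitatory and inhibitory neurons was tested with limma for 12732 genes, and 0 were called (0%), guidance genes included. An unadjusted p under 0.05 was reached by 698 of all genes (5.48%) and by 5 of 51 guidance genes. The smallest among guidance genes was that of Epha8. It was lower in every CIH library in excitatory neurons (8.41, 8.26 and 7.48 CPM against 13.7, 11.8 and 10.4 CPM) and higher in every one in inhibitory neurons, a difference of -1.31 on the log2 scale. Its SE was 0.15 and limma gave an adjusted p = 0.876 (unadjusted 9.03e-05). These Epha8 levels rest on 14 to 65 UMIs per library and class.

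In oligodendrocytes Dcc had 732, 796 and 894 CPM under CIH, against 982, 1034 and 1033 CPM in normoxia, all CIH libraries below, a log2 difference of -0.33 (SE 0.08, adjusted p = 0.546). Ephb2 had 22.2, 21.4 and 14.9 CPM under CIH, against 44.2, 52.0 and 23.0 CPM in normoxia (log2 difference -1.05, SE 0.31, adjusted p = 0.786). In this class deviations of libraries with the same replicate number correlated (0.154 to 0.428). So did those of CIH replicate 2 with normoxia replicate 1 (0.188) and of CIH replicate 1 with normoxia replicate 2 (0.126). Each pair of a replicate 3 with a replicate 1 or 2 correlated negatively (-0.320 to -0.220). The numbers are thus not shown to pair the libraries 1 to 1, although the 2 replicate 3 libraries deviated together (0.428). The reason was not tested. With the replicate number as a block both genes passed the threshold in edgeR: Dcc at -0.33 (adjusted p = 0.0199) and Ephb2 at -0.97 (adjusted p = 0.0126). Dcc also passed without the filter on low counts (adjusted p = 0.0482). Over all alternatives the adjusted p ran from 0.0199 to 1.00 for Dcc and from 0.0126 to 1.00 for Ephb2, and the direction was the same in each. The third, Sema3a, lay at 0.982 to 3.103 CPM under CIH, against 4.38 to 5.38 CPM in normoxia (log2 difference -1.11, and -1.67 without CIH replicate 3). Robo1 had 566 and 586 CPM in CIH replicates 1 and 2 but 874 CPM in CIH replicate 3, against 829 to 968 CPM in normoxia, and was called only when CIH replicate 3 was left out (log2 difference -0.63). Precursor markers in oligodendrocytes summed to 323 to 469 CPM under CIH, against 336 to 345 CPM in normoxia, and neuronal markers to 579 to 746 CPM and 667 to 829.9 CPM. The sums of 12 microglial markers did not overlap, with 124 to 129.8 CPM under CIH, against 154 to 164 CPM in normoxia, nor did those of 12 mural cell markers, with 11.04 to 27.6 CPM against 8.15 to 9.82 CPM; none of these markers was at 0. The part of those cells was not tested.

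**Figure D5:**
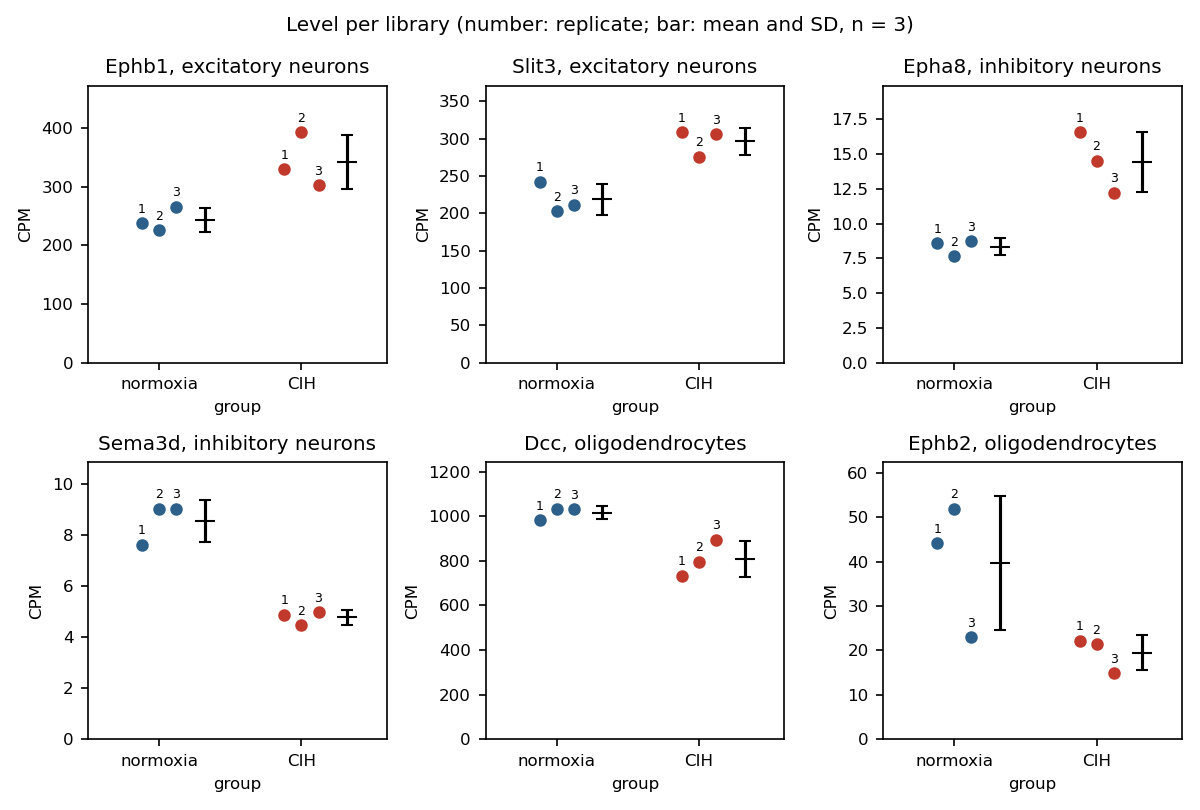
Level in CPM per library of 6 guidance genes in the class named above each panel, with normoxia in blue and CIH in red; small numbers are replicates and bars the mean and SD of 3. The genes were picked for the smallest p in their class, a choice that favours groups without overlap. The groups do not overlap in any panel, although edgeR gave no adjusted p under 0.05. Ephb2 in normoxia replicate 3 (23.0 CPM) lies next to the CIH values.

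In oligodendrocyte precursors Plxna4 had 122, 125 and 129 CPM under CIH, against 59.5, 79.0 and 80.8 CPM in normoxia, from 8 to 55 UMIs per library (log2 difference 0.78, SE 0.32, adjusted p = 0.847). Ntn1, described above, was also higher in each CIH library (0.35, SE 0.23, and 0.20 without normoxia replicate 1), as was Unc5c (0.23, SE 0.14, and 0.14 with the stricter gate). Astrocyte markers in the precursors summed to 712 to 798 CPM under CIH, against 617 to 673 CPM in normoxia, endothelial markers (1 of 12 at 0) to 28.1 to 125 CPM against 8.78 to 22.3 CPM, and the 8 granule markers to 347 to 385 CPM against 390.4 to 509 CPM, and their part in these differences was not tested.

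In astrocytes Epha4 had 222, 183 and 187 CPM under CIH, against 254, 283 and 269 CPM in normoxia (log2 difference -0.47, SE 0.18, adjusted p = 0.823), and Robo2 differed by -0.43 (SE 0.18) with overlap. For Robo2 the log2 difference was -0.27 without CIH replicate 3, which supplied most astrocytes, and -0.16 with the stricter gate. Sema6d, given above, was higher in each CIH library (0.31, SE 0.14). In microglia Robo2 differed by 0.71 (SE 0.32) and overlapped, and the value was 1.13 without normoxia replicate 3, 0.42 with high-scoring doublets removed and 0.36 with the stricter gate. Sema4d had 151, 162 and 192 CPM under CIH, against 248, 207 and 195 CPM in normoxia (-0.35, SE 0.17, adjusted p = 0.997). Dcc in microglia, the third there, differed by 0.20 (SE 0.27) and changed sign between alternatives. In astrocytes and microglia no marker sum of another cell type separated the groups.

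In endothelial cells Plxna4 had 208, 149.6 and 189.5 CPM under CIH, against 275, 269 and 358 CPM in normoxia (log2 difference -0.74, SE 0.27, adjusted p = 0.564). Unc5c there had 1 to 81 UMIs per library and overlapped, as did Plxna2 (0.48, and 0.29 without CIH replicate 3). The 12 endothelial markers themselves summed to 22116 to 23024 CPM under CIH, against 19829 to 20744 CPM in normoxia, and the 8 granule markers (1 at 0) to 988 to 1214 CPM against 497 to 959 CPM. In granule neurons Epha5 had 269, 201 and 253 CPM under CIH, against 291, 343 and 369 CPM in normoxia (log2 difference -0.48, SE 0.13, adjusted p = 0.999, under 0.05 without the filter on low counts). Sema6d (-0.45, SE 0.15) and Sema5a (0.43, SE 0.15, and 0.27 without CIH replicate 1) overlapped. Astrocyte markers in granule neurons summed to 634 to 746 CPM under CIH, against 455 to 524 CPM in normoxia, and microglial markers to 80.1 to 99.7 CPM against 110.05 to 139 CPM, with none at 0. The 5 cholinergic markers (2.41 to 4.51 CPM against 5.06 to 9.22 CPM) and the 3 excitatory transmitter genes (131 to 139.9 CPM against 141 to 164 CPM) also separated the groups. The 4 inhibitory transmitter genes in granule neurons summed to 89.2 to 106 CPM under CIH, against 89.8 to 104 CPM in normoxia. The part of those cells in the endothelial and granule values was not tested.

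3 lists of other genes of these pathways were taken along: 20 coreceptors and other guidance receptors, 14 other secreted or surface cues and 56 intracellular effectors. Over the 8 classes none of their 98, 55 and 344 tests was called between CIH and normoxia by edgeR. An unadjusted p under 0.05 was reached by 14 tests of the coreceptors (14.3%), 3 of the cues (5.45%) and 18 of the effectors (5.23%), against 5.88% of the tests of all genes over the 8 classes. Among coreceptors the smallest p were those of Kdr, the VEGF receptor of endothelium (111, 167 and 98.7 CPM under CIH, against 453, 290.1 and 138 CPM in normoxia, with overlap; adjusted p = 0.564), and Lrrc4c, a netrin-G ligand, in excitatory neurons (2399.7 to 2625 CPM against 2911 to 3407 CPM; adjusted p = 0.508). Among cues they were Tnr and Rgma in inhibitory neurons, both higher in each CIH library (adjusted p = 0.387 and 0.631). Tnr is also 1 of the 12 precursor markers, whose sum in inhibitory nuclei was 1278 to 1543 CPM under CIH and 1281 to 1414 CPM in normoxia. Among effectors they were the Rac regulator Chn2 in excitatory neurons (92.5, 79.7 and 67.3 CPM under CIH, against 34.8, 28.4 and 51.9 CPM in normoxia; adjusted p = 0.188) and the exchange factor Vav2 in oligodendrocytes (mean 13.2 CPM against 6.87 CPM, no overlap; adjusted p = 0.278). Chn2 is also 1 of the 8 granule markers, whose sum moved with the group in excitatory neurons.

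Across classes, 10 of the 18 coreceptors tested were called higher in inhibitory neurons (all genes 17.9%), 9 in excitatory neurons (18.7%), 7 in astrocytes (15.5%), 6 in granule neurons (14.3%), 5 in endothelial cells (15.5%), 5 in oligodendrocyte precursors (10.3%), 2 in oligodendrocytes (13.9%) and 2 in microglia (16.5%). Of the 12 cues tested, 5 were called higher in oligodendrocytes (all genes 13.9%), 5 in astrocytes (15.5%), 4 in excitatory (18.7%) and 4 in inhibitory neurons (17.9%). There were 3 in granule neurons (14.3%), 3 in oligodendrocyte precursors (10.3%), 1 in microglia (16.5%) and 1 in endothelial cells (15.5%). Of the 56 effectors, 12 to 19 were called higher in each class (all genes 13.9 to 18.7%) apart from oligodendrocyte precursors, which had 10 (all genes 10.3%). The lists share no gene with the 67 guidance genes. They do share genes with the markers of the classes. The cue Mag is an oligodendrocyte marker, the cue Tnr a precursor marker and the effector Chn2 a granule marker. Any call of these genes in those classes is not independent of the gate.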

How the data were processed

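Single nuclei of the pons and medulla from 3 CIH and 3 normoxia libraries were measured with 10x 3' chemistry. The authors deposited filtered matrices of UMI counts per gene and nucleus, made with Cell Ranger 6.1.2 per the file headers; the submitters' processing notes name Cell Ranger 3.1.0, Seurat 4.0 and mm10. Whether intronic reads were counted is not given in the sources used here, and it would weigh most on long genes, since nuclear RNA is largely unspliced.

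The guidance genes, marker lists and pathway lists were chosen with earlier results of these data known. A nucleus was assigned to a class when it had at least 3 to 5 of that class's 8 or 12 markers. Outside granule neurons, its share of them was also at least 2 times that of any other class. Macrophages were not set against microglia, which share genes with them. Neurons became excitatory or inhibitory with at least 2 UMIs of the 3 or 4 transmitter genes, a 4-fold ratio between the 2 sets and at most 2 granule markers. Granule neurons needed 3 of 8 granule markers and 2 general neuron markers. The larger of their granule and general neuron shares had to be at least 2 times any non-neuronal share. Serotonergic, cholinergic and noradrenergic neurons needed 3, 3 and 2 of their markers. These thresholds were set after the marker counts were seen. Nuclei with mixed markers were left out and no doublet caller was used in the main analysis. Counts were summed per library and class. CIH was compared with normoxia in each class, and each class with the other 7 with library as a block, by edgeR 4.0.16 (quasi-likelihood test, TMM scaling, its filter on low counts) in R 4.3.3, with Benjamini-Hochberg adjustment over all genes tested. The difference between neuron classes was tested with limma 3.58.1 on log2 CPM with a prior count of 1. Alternatives were DESeq2 1.42.0, RLE scaling, no filter on low counts, a stricter gate, stricter limits of 1000 genes and 1% mitochondrial UMIs, removal of high Scrublet scores (scanpy 1.11.5), a prior count of 5, each library left out, the replicate number as a block and, added after seeing the data, the shared barcodes kept.

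Replicate numbers come from the sample titles. Deviations of libraries with the same number correlated above 0.1 for every pair in oligodendrocytes only (0.154 to 0.428), so the block is given beside that class. There CIH replicate 2 with normoxia replicate 1 (0.188) and CIH replicate 1 with normoxia replicate 2 (0.126) also correlated. Each pair of a replicate 3 with a replicate 1 or 2 correlated negatively (-0.320 to -0.220). The numbers are thus not shown to pair the libraries 1 to 1, although the 2 replicate 3 libraries deviated together. Named genes are those at 10 CPM or more, by leading class; in each class the 3 members of smallest p between CIH and normoxia; for 6 genes the 3 most alike (those of Slit2 are not reported here); and the 2 of smallest p per list. Guidance genes called only under an alternative (Robo1 in oligodendrocytes and Slit2, Epha6 and Ntn1 in inhibitory neurons) were named after their values were seen. The fit of CIH against normoxia was also run on simulated counts with known changes, and the outcome is not reported here. Gene coordinates are from GENCODE M21 and promoter sequences from RefSeq (GRCm38.p6).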

Additional observations from a re-analysis of the deposited data

How the results depend on the processing

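No guidance gene was called between CIH and normoxia in any class by edgeR's quasi-likelihood test, and this count moved from 0 under the following alternatives. Without the filter on low counts it was 1 in oligodendrocytes (Dcc), 2 in excitatory neurons (Ephb1, Slit3), 3 in inhibitory neurons (Unc5c, Slit2, Epha6) and 1 in granule neurons (Epha5). With the replicate block it was 2 in oligodendrocytes (Dcc, Ephb2) and 0 in the other classes. In each of those at least 1 pair of libraries with the same number correlated at 0.1 or less. Leaving out 1 library at a time gave 0 to 1 in oligodendrocytes, excitatory and inhibitory neurons, and the 1 came each time without CIH replicate 3 (Robo1, Ephb1 and Ntn1, adjusted p = 0.0247, 0.0124 and 0.00987); it gave 0 in the other classes. The cause was not tested. Dcc in microglia changed sign, from 0.20 to -0.0495 with high-scoring doublets removed, and lay between -0.0638 and 0.48 when a library was left out. Counts of genes called higher in a class stayed within 1.5 times under the alternatives run, for example 28 to 38 in excitatory neurons and 12 to 19 in oligodendrocyte precursors. Depth limits the small classes most: 3 UMIs in the shallowest library equal 62.2 CPM in endothelial cells and 28.2 CPM in oligodendrocyte precursors, against 0.912 CPM in oligodendrocytes.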

Other observations

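Some guidance genes were highest in classes too small to test. In these the nuclei of all libraries were pooled, levels are counts per pooled total without TMM scaling, and exact Poisson 95% intervals cover counting error only. In 44 cholinergic neurons, marked by acetylcholine genes and found in 5 of the 6 libraries, Slit3 stood at 1065 CPM (990 to 1145), where granule neurons, the highest of the 8 tested classes, had 419 CPM. Slit2 had 611 CPM (555 to 672) and Epha7 245 CPM (210 to 284) in the same nuclei.

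In 134 fibroblasts Slit2 had 860 CPM (764 to 965), Epha7 274 CPM (221 to 336) and Sema3a 262 CPM (211 to 323). Sema3a had 68.8 CPM in inhibitory neurons, its highest tested class. The identity of these fibroblasts is weakly held. Their gate asked for 3 of 12 markers, and the median nucleus had 4. Before the shared barcodes were left out, the stricter gate gave 34 fibroblasts, against 135 with the main gate. The intervals do not cover this. In 34 noradrenergic neurons the values were 2222 CPM for Robo1, 1676 CPM for Unc5d, 1288 CPM for Epha5 and 1005 CPM for Sema6d, each above the highest tested class. In 167 mural cells Epha2, under 10 CPM in every tested class, had 37.3 CPM (17.1 to 70.9) from 9 UMIs. None of the 67 genes was higher in the 67 serotonergic neurons than in every tested class. These are values of single pools, with no test between classes.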
